A study of Mus musculus with 4 samples.

Results

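The genes described here encode the proteins that neutrophils pack into their granules, together with the S100 proteins that fill the neutrophil cytosol. They are 10 of the 21578 genes in the deposited tables and were taken by gene name. Primary granule genes number 4 (Mpo, Elane, Prtn3 and Ctsg) and later genes 6 (Ltf, Camp, Ngp, Lcn2, S100a8 and S100a9). They were chosen by their counts in these libraries, which were in view when the genes were proposed, so their levels are given as a description and carry no test. RNA came from brain endothelial cells of C57BL/6 mice at postnatal day 0 and was sequenced in 2 libraries of Pd1fl/fl mice and 2 libraries of Pd1cKO-Tie2 mice. Both genotypes carry the floxed Pd1 allele, and Pd1cKO-Tie2 mice also carry the Tie2-Cre transgene, whose driver is active in endothelial cells and, as the study states, in haematopoietic cells and some myeloid lineages. The cells were purified by flow cytometry, and the study's protocol for primary endothelial cells lyses red cells and labels CD31 and CD45. The number of mice behind each library is not given in the sources used here.

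Neutrophils are made in haematopoietic tissue, and their granules are filled in an order that follows maturation. Promyelocytes make the primary (azurophil) granule proteins, among them myeloperoxidase and the serine proteases. Myelocytes and metamyelocytes stop making these and turn to the secondary (specific) granule proteins such as lactoferrin and cathelicidin. The messages of both groups are largely lost from the mature cell, so at the RNA level the primary and secondary granule genes mark precursors more than circulating neutrophils. This does not extend to S100a8 and S100a9, whose proteins lie in the cytosol. Lcn2, S100a8 and S100a9 are less restricted, since other myeloid and inflamed cells can express them. Endothelial cells are not known as a source of the primary granule proteases.

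Reads per library numbered 13715837 to 14359990 in Pd1fl/fl and were 24147311 and 14157027 for Pd1cKO-Tie2 replicates 1 and 2. The last library carries a column number that no sample label has and is known by its genotype alone. Levels are CPM, read counts relative to library size, after TMM scaling, edgeR's correction for library composition. Counts are as deposited. A count of 0 allows up to 3 counts, or 0.125 to 0.219 CPM in these libraries, and this covers counting error only. A gene left out of a table can hold at most 4 counts there, which concerns Elane, Ltf and Camp in Pd1fl/fl replicate 2. Pdcd1, the targeted gene, had 32 counts in Pd1fl/fl replicate 1, no listed count in Pd1fl/fl replicate 2 and 0 counts in both Pd1cKO-Tie2 libraries. Because a Pd1fl/fl library also lacked it, Pdcd1 cannot check the label of that library or those of the Pd1cKO-Tie2 libraries. The endothelial marker Cldn5 was the leading gene of its list in all 4 libraries, at 4764 to 6993 CPM.

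The 10 genes lie on 6 chromosomes of GRCm38, and all are protein-coding. Elane and Prtn3, 2 serine proteases, are close neighbours on the forward strand of chromosome 10 (79886247 to 79888215 and 79874476 to 79883174). Camp, Ngp and Ltf lie within one stretch of chromosome 9 (109847379 to 109849617, 110419747 to 110423012 and 111019271 to 111042767). S100a8 and S100a9 are neighbours on chromosome 3 (90668978 to 90670035 and 90692632 to 90695721). Mpo is on chromosome 11 (87793581 to 87804413), Ctsg on chromosome 14 (56099881 to 56102574) and Lcn2 on chromosome 2 (32384633 to 32388252). Of these genes, 9 share no stretch of 50 bases with transcripts of another gene, and Mpo shares 0.228% of its stretches. Exons of Prtn3 share 159 bases with Plppr3, and those of Mpo 512 bases with Gm11505, each on the other strand.

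The upstream sequences of 4 members are shown as examples, a pair from each class. Elane and Ltf were counted in a single library, whereas Ctsg was counted in 3 and Ngp in 2. They come from RefSeq (GRCm38.p6) and end before the first base of the gene. Capitals mark matches, on either strand, to letters bound by 3 factors of granulocyte development: TTNNGNAA for the C/EBP family, GAGGAA for PU.1 and TGTGGT for RUNX. In the lines given, none of the matches overlap.
Elane, chr10:79886062-79886246, forward strand: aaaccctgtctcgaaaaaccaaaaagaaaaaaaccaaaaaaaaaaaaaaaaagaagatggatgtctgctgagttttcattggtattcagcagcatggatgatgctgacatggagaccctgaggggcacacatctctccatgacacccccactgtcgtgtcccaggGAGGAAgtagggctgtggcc
Ctsg, chr14:56102575-56102824, reverse strand: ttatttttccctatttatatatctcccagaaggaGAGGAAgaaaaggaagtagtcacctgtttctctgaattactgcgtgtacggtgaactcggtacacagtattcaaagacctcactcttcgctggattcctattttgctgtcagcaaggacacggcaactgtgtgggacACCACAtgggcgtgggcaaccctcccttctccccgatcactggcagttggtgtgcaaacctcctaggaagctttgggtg
Ltf, chr9:111019042-111019270, forward strand: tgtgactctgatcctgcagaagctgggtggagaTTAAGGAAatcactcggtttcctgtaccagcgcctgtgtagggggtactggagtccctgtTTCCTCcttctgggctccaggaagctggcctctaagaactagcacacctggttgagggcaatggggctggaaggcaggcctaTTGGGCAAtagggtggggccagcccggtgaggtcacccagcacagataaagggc
Ngp, chr9:110419558-110419746, forward strand: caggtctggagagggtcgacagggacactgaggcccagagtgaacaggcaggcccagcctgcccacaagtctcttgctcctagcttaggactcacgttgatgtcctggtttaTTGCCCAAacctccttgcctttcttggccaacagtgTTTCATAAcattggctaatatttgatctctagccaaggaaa
Over the 250 bases before each RefSeq start, the C/EBP letters were found in 0 of the 4 primary granule genes and in 5 of the 6 later genes, against 36.8% of 32851 promoters. The PU.1 letters were found in 4 of the 4 primary granule genes and 3 of the 6 later genes, against 23.3% of promoters. The RUNX letters were found in 2 of the 10 members, Ctsg and S100a9, against 14.0% of promoters. A match is a description of the sequence only, and matches outside this window were not sought.

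Of the primary granule genes, Mpo, Prtn3 and Ctsg were counted in libraries of both genotypes. Mpo, which encodes myeloperoxidase, the enzyme that makes hypochlorous acid from hydrogen peroxide, had 2423 and 339 counts in the Pd1fl/fl libraries (replicates 1 and 2), and 1278 and 0 in those of Pd1cKO-Tie2 (replicates 1 and 2). These are 167.7, 23.8, 53.4 and 0 CPM. The groups overlapped, because the first Pd1cKO-Tie2 library lay between the Pd1fl/fl libraries. Prtn3, which encodes the protease proteinase 3, had 307 and 32 counts in the Pd1fl/fl libraries, and 255 and 10 in those of Pd1cKO-Tie2, or 21.3, 2.25, 10.6 and 0.731 CPM. Prtn3 was thus the sole primary granule gene with a count in every library. Its antisense neighbour Plppr3 had 169 and 389 counts in the Pd1fl/fl libraries, and 597 and 203 in those of Pd1cKO-Tie2. Whether the authors' counting used strand is not given, so reads in the shared bases could belong to either gene. Ctsg, which encodes cathepsin G, had 105 and 2 counts in the Pd1fl/fl libraries, and 56 and 0 in those of Pd1cKO-Tie2. Mpo, Prtn3 and Ctsg had the same order of libraries, with Pd1fl/fl replicate 1 first, then Pd1cKO-Tie2 replicate 1, Pd1fl/fl replicate 2 and Pd1cKO-Tie2 replicate 2. That order held for 3.41% of the 17984 genes with at least 1 CPM in some library.

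Elane, which encodes neutrophil elastase, stood apart from the other primary granule genes. It had 252 counts in Pd1fl/fl replicate 1, was not listed in Pd1fl/fl replicate 2 and had 0 counts in both Pd1cKO-Tie2 libraries. Its 17.4 CPM in Pd1fl/fl replicate 1 were at least 139-fold higher than the limit in Pd1cKO-Tie2 replicate 1. That library held many reads of the companion genes. Per 100 counts of Mpo, Pd1fl/fl replicate 1 had 4.33 counts of Ctsg, 12.7 of Prtn3 and 10.4 of Elane. Pd1cKO-Tie2 replicate 1 had 4.38 counts of Ctsg, 20.0 of Prtn3 and 0 of Elane. In the proportion of Pd1fl/fl replicate 1, its 1278 Mpo counts would have gone with 133 Elane counts. In Pd1fl/fl replicate 2 the same proportion would have given 35.3 Elane counts, where at most 4 were possible. Primary granule genes therefore did not keep 1 proportion across libraries.

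**Figure D1:**
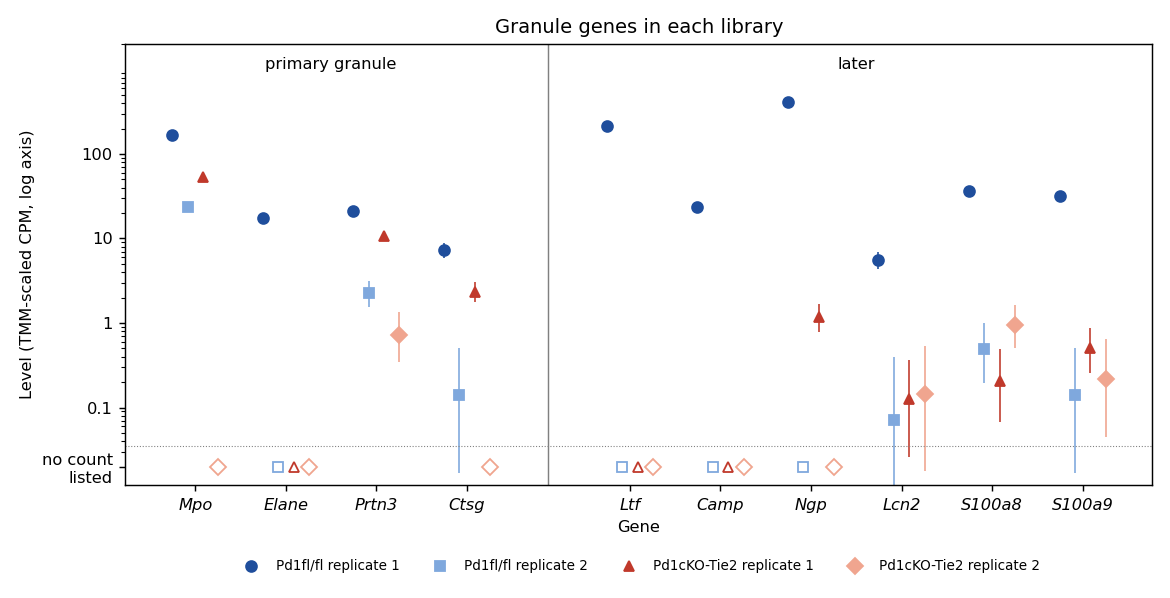
The level of each gene in TMM-scaled CPM (log axis) is shown for the 4 libraries, with primary granule genes on the left and later genes on the right. Bars are 95% exact Poisson intervals, which cover counting error only, and open symbols mark genes with no listed count. Pd1fl/fl replicate 1 is highest for all 10 genes, and Pd1cKO-Tie2 replicate 1 holds 53.4 CPM of Mpo but no count of Ltf or Camp.

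The later genes were nearly limited to Pd1fl/fl replicate 1. Ngp, which encodes neutrophilic granule protein, a relative of the cathelicidins, had 5950 counts there and 0 in Pd1fl/fl replicate 2, with 28 and then 0 in the Pd1cKO-Tie2 libraries. Its 411.9 CPM in the first library were the highest level of any member. Ltf, which encodes the iron-binding protein lactoferrin, had 3132 counts in Pd1fl/fl replicate 1, was not listed in Pd1fl/fl replicate 2 and had 0 counts in both Pd1cKO-Tie2 libraries. This was at least 1730-fold above the limit in the first Pd1cKO-Tie2 library and at least 989-fold above that in the second. Camp, which encodes the antimicrobial precursor cathelicidin, had 342 counts in Pd1fl/fl replicate 1, no listed count in Pd1fl/fl replicate 2 and 0 counts in both Pd1cKO-Tie2 libraries. The same library thus held all listed reads of both genes.

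The less restricted later genes had counts in every library, at low levels outside Pd1fl/fl replicate 1. S100a8, which encodes the light subunit of calprotectin, had 531 and 7 counts in the Pd1fl/fl libraries, and 5 and 13 in those of Pd1cKO-Tie2. S100a9, which encodes its partner subunit, had 461 and 2 counts in the Pd1fl/fl libraries, and 12 and 3 in those of Pd1cKO-Tie2. Lcn2, which encodes the siderophore-binding protein lipocalin 2, had 80 and 1 counts in the Pd1fl/fl libraries, and 3 and 2 in those of Pd1cKO-Tie2. Outside Pd1fl/fl replicate 1, none of these genes reached 1 CPM, and the Poisson intervals of the 3 other libraries overlapped for Lcn2 and S100a9. For S100a8 those of the Pd1cKO-Tie2 libraries did not overlap. S100a8 was 38.7-fold and S100a9 63.7-fold higher in Pd1fl/fl replicate 1 than in the next library.

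All 10 members had their highest level in Pd1fl/fl replicate 1, as had 24.8% of the 17984 genes of at least 1 CPM. The other libraries were highest for 26.6% (Pd1fl/fl replicate 2), 24.3% and 24.4% (Pd1cKO-Tie2 replicates 1 and 2) of those genes. At least 90% of the CPM summed over the libraries lay in Pd1fl/fl replicate 1 for 7 members, that is the 6 later genes and Elane, against 2.49% of those genes. In the second Pd1fl/fl library the same count over all genes was 2.21%, and in the Pd1cKO-Tie2 libraries 1.94% and 1.57%, so genes held by 1 library were a small share in each. The members were proposed for this pattern, and these shares give its frequency among all genes only. Of the 11225 genes with at least 5 CPM in Pd1fl/fl replicate 1, 0.339% had 3 counts or fewer in each of the 3 other libraries. Among those 38 genes, the 5 with the highest level were Ltf, Camp, Cd177, Elane and Stfa1, all from the granulocyte lists used here. In all, 4 of the 38 were members and 2 were other granulocyte genes, and the rest were on no granulocyte list. The next by level were Lgr6, Cabs1 and Col1a1, with 161, 159 and 152 counts in Pd1fl/fl replicate 1 and 0 counts elsewhere. Cd177 encodes a neutrophil surface and granule glycoprotein, Stfa1 a stefin, an inhibitor of cysteine proteases. Both were singled out after their values were seen.

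Primary and later genes were then compared within each library, where scaling between libraries has no part. Levels of different genes were set per kilobase of exon. In Pd1fl/fl replicate 1 the later genes summed to 547.3 CPM per kb and the primary granule genes to 86.0, a later-to-primary ratio of 6.36 (95% interval 6.11 to 6.63, from the exact binomial interval of the counts). The intervals of this ratio cover counting error only and take the mix of genes in each class as given. In Pd1fl/fl replicate 2 the sums were 1.01 and 8.39 CPM per kb, and the ratio was 0.120 (0.0569 to 0.223). In Pd1cKO-Tie2 replicate 1 they were 2.27 and 24.0 CPM per kb, with a ratio of 0.0944 (0.0693 to 0.126). The ratio was thus above 1 in the first Pd1fl/fl library and below 1 in both libraries that held the other Mpo reads. In Pd1cKO-Tie2 replicate 2 it was 4.37 (1.91 to 10.6), but this rests on 10 primary counts, all of Prtn3, and 18 later counts, 13 of them of S100a8. Without S100a8, S100a9 and Lcn2 the ratio there was 0, and the ratio of Pd1fl/fl replicate 1 was 5.01. The Pd1fl/fl libraries did not resemble each other in this ratio, with or without S100a8, S100a9 and Lcn2. For Pd1cKO-Tie2 the counts of replicate 2 are too few to compare.

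**Figure D2:**
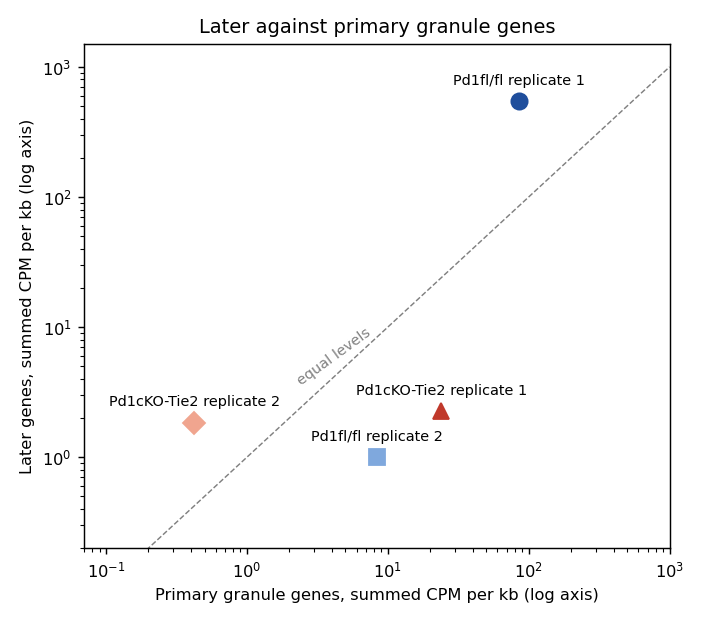
Each point is a library, placed by the summed level of the 4 primary granule genes (horizontal) and of the 6 later genes (vertical), both in TMM-scaled CPM per kb of exon on log axes. The dashed line marks equal sums. Pd1fl/fl replicate 1 lies above it at 86.0 and 547.3 CPM per kb, whereas Pd1fl/fl replicate 2 and Pd1cKO-Tie2 replicate 1 lie below it.

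As plain CPM, the primary granule genes of Pd1fl/fl replicate 2 and Pd1cKO-Tie2 replicate 1 reached 12.3% and 31.1% of the 213.7 CPM in Pd1fl/fl replicate 1. The later genes reached 0.0967% and 0.276% of its 726.5 CPM. In Pd1cKO-Tie2 replicate 2 the sums were 0.342% for the primary granule genes and 0.181% for the later genes. Members took 0.0946% of all reads of Pd1fl/fl replicate 1 and between 0.000198% and 0.00678% of the reads of the 3 other libraries. In bulk RNA, fewer cells of a type cannot be told apart from less RNA per cell.

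The composition of each class also differed between libraries. Among the later genes of Pd1fl/fl replicate 1, Ngp made up 61.6% of the CPM per kb, Ltf 11.5%, S100a9 11.2%, S100a8 9.68%, Camp 5.71% and Lcn2 0.386%. In Pd1fl/fl replicate 2 and Pd1cKO-Tie2 replicate 2, S100a8 led instead, with 70.5% and 74.2% of sums of 10 and 18 counts. In Pd1cKO-Tie2 replicate 1, S100a9 and Ngp held 42.4% and 42.2% of a sum of 48 counts. Among the primary granule genes, Mpo led with 56.9% and 82.9% in the Pd1fl/fl libraries, and with 64.9% in the first of Pd1cKO-Tie2.

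For every member the Pd1fl/fl libraries were farther from each other than the means of the genotypes were. The mean level of Mpo was 95.8 ± 101.7 CPM for Pd1fl/fl, against 26.7 ± 37.7 CPM for Pd1cKO-Tie2 (SD, n = 2). Ltf was at 108.4 ± 153.3 CPM in Pd1fl/fl libraries (SD, n = 2) and at 0 counts in Pd1cKO-Tie2 libraries. Only 5 members passed edgeR's filter on low counts, and Elane, Ltf, Camp, Lcn2 and S100a9 were not tested. At the criterion of the study's methods, 2-fold or more at an unadjusted p up to 0.05, 2.61% of the 15909 tested genes were lower in Pd1cKO-Tie2 libraries and 1.41% higher. The fitted values of Ngp and S100a8 lay past it as lower, with log2 fold changes of -8.21 (standard error 2.97) and -5.05 (standard error 1.95). Those of Mpo (-1.83), Prtn3 (-1.03) and Ctsg (-1.64) did not. These are descriptions and nothing is read from the count, because the members were chosen by the same counts and both genes passed the filter through the library in which they are high. Without Pd1fl/fl replicate 1 all 5 log2 fold changes were above 0. They were 6.37 for Ngp, 0.23 for S100a8, 0.18 for Mpo, 1.35 for Prtn3 and 3.01 for Ctsg. Nothing is read from this either, because the members were chosen by counts that are high in that library. Without Pd1cKO-Tie2 replicate 1 the value of Mpo was -13.40. The Pd1fl/fl library left in the first fit has 0 counts of Ngp and 2 of Ctsg, and the Pd1cKO-Tie2 library left in the second has 0 counts of Mpo. The size of these values is therefore no measure of the change.

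Other granulocyte genes were listed by role and not by their change, but with earlier results of these data known. Their shares and counts are therefore given as descriptions. Of all 17984 genes of at least 1 CPM, 2.49% had at least 90% of their summed CPM in Pd1fl/fl replicate 1. Of the 29 other granule genes of at least 1 CPM, 8 had that share in Pd1fl/fl replicate 1. Cd177 had 305 counts there and Stfa1 180, with 0 counts in both Pd1cKO-Tie2 libraries and none listed in Pd1fl/fl replicate 2. Chil3, a chitinase-like protein of myeloid cells, had 169 counts there, 6 in Pd1cKO-Tie2 replicate 1 and 0 in the 2 other libraries. Prss57, a primary granule protease, had 40 counts there, 4 in Pd1cKO-Tie2 replicate 1, 0 in Pd1cKO-Tie2 replicate 2 and none listed in Pd1fl/fl replicate 2. Fcnb (38 counts), the stefin genes BC100530 (72 counts), Stfa2l1 (26 counts) and Stfa2 (20 counts) had listed counts in Pd1fl/fl replicate 1 alone. Counts of the stefins and of Chil3 are uncertain, because 15.9% to 26.9% of their 50-base stretches also occur in other genes. These genes were named for this pattern, after their values were seen.

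The remaining granule genes varied in pattern, and those of highest level in the primary granule list were counted in every library. Ctsc, the protease that activates the granule proteases, was at 303.1 and 354.1 CPM in the Pd1fl/fl libraries, and 145.2 and 198.9 in those of Pd1cKO-Tie2. Lyz2, the lysozyme of macrophages and neutrophils, was at 223.1 and 285.5 CPM against 117.6 and 184.0 CPM, and 15.4% of its 50-base stretches also occur in Lyz1. Srgn, the granule proteoglycan, was at 232.2 and 249.3 CPM against 159.8 and 288.4 CPM. These genes are also expressed by macrophages and other leukocytes. For Ctsc and Lyz2 both Pd1cKO-Tie2 libraries lay below both Pd1fl/fl libraries, with log2 fold changes of -0.93 and -0.75 that did not reach 2-fold. The same order of the groups was found in 18.1% of all tested genes.

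**Figure D3:**
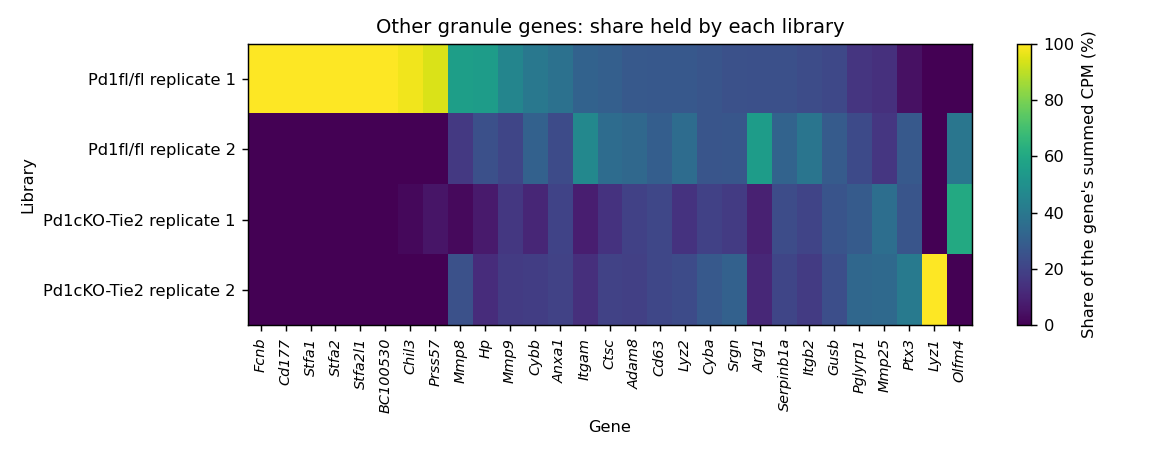
Each column is 1 of the 29 other granule genes of at least 1 CPM, and the colour gives the share (0 to 100%) of its summed TMM-scaled CPM held by each library. The 8 genes on the left lie almost wholly in Pd1fl/fl replicate 1, whereas most of the others are spread over all 4 libraries.

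Counted over the lists of other primary granule genes, other secondary and tertiary granule genes, mature neutrophil genes and granulocyte transcription factors, 51 of 73 genes were tested. By the criterion 11 were lower and 1 was higher in Pd1cKO-Tie2 libraries. That is 23.5% of those tested, against 4.02% of all tested genes. In the lists of other blood cells, 2 of 12 leukocyte and 2 of 13 macrophage and microglia genes were lower by it. No gene of the remaining blood lists met it. The median log2 fold change of the other granulocyte genes was -0.65, against -0.004 over all tested genes. Some marker lists of other blood cells had medians of like size, at -0.76 for leukocyte, -0.84 for macrophage and microglia, -1.05 for monocyte and -0.81 for mast cell, basophil and eosinophil genes. Lymphocyte genes were at -0.48, platelet genes at -0.23, erythroid genes at -0.14 and haematopoietic progenitor genes at 0.14. Outside blood, medians ran from -0.87 (astroglial) to 0.33 (endothelial). The median of the other granulocyte genes lay within these ranges. Leaving out 1 library moved the number of other granulocyte genes that met the criterion in both directions. None of them had an adjusted p under 0.05 in edgeR's quasi-likelihood test over all genes. There the smallest adjusted p was 0.735, and 1016 genes had an unadjusted p under 0.05. DESeq2, run on all genes with a count, gave 117 genes with an adjusted p under 0.05. Of the 52 genes of these lists that had an adjusted p there, 7 were among them (Cd177, Ctsc, Fcgr3, Hdc, Il1b, Mmp25 and Stfa1). Mmp25 was higher in Pd1cKO-Tie2 libraries, and Cd177 and Stfa1 had listed counts in Pd1fl/fl replicate 1 alone. With limma-voom 0 genes had an adjusted p under 0.05.

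The genes that met the criterion as lower are shared by several myeloid cells. Of the granule list these were Hp (haptoglobin), Cybb (the NADPH oxidase catalytic subunit), Itgam (CD11b) and Arg1 (arginase). Their log2 fold changes ran from -1.30 to -1.99. Mmp25, also on that list, met the criterion as higher, at 1.23. The study names it among genes raised in its RNA-seq data and involved in angiogenesis. Of the mature neutrophil list the lower genes were Csf3r (the G-CSF receptor, -1.11), Ptafr (-1.97), Hdc (histidine decarboxylase, -1.36), Ncf4 (-1.19) and Il1b. Il1b, the interleukin 1 beta gene, had 58 and 70 counts in Pd1fl/fl and 0 counts in both Pd1cKO-Tie2 libraries. Csf3r had 369 and 465 counts in the Pd1fl/fl libraries, and 224 and 243 in those of Pd1cKO-Tie2, so unlike Ltf it was present in every library. Of the transcription factors, Spi1 (PU.1, -1.45) and Runx1 (-1.85) were lower. Further genes of high level in these lists, among them Mmp9, Pglyrp1, Itgb2, Cyba, Fcgr3, Mxd1, Ncf1, Klf4, Irf8, Cebpd, Cd63 and Gusb, did not meet the criterion.

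Some genes of the granulocyte lists were absent from the tables or had no listed count in part of the libraries. Cebpe, the factor needed for secondary granules, the mature neutrophil marker Ly6g, and Ms4a3 and Bpi of the primary granule list were in none of the 4 tables. Gfi1, a repressor needed for neutrophil formation, had 9 counts in Pd1fl/fl replicate 2, was not listed in Pd1fl/fl replicate 1 and had 0 counts in both Pd1cKO-Tie2 libraries. Cxcr2, the chemokine receptor of mature neutrophils, had 163 and 238 counts in the Pd1fl/fl libraries, and 0 and 74 in those of Pd1cKO-Tie2. The library without Cxcr2 was the one that held the second highest Mpo.

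Markers of other blood cells were compared with the members library by library. All 12 leukocyte genes and all 13 macrophage and microglia genes had more than 3 counts in every library. The leukocyte genes summed to 1605 and 1824 CPM in the Pd1fl/fl libraries, and 919 and 1289 in those of Pd1cKO-Tie2. Ptprc, which encodes CD45, was at 86.2 and 138.3 CPM against 54.5 and 67.8 CPM. Pd1fl/fl replicate 2 thus had the most Ptprc and the fewest later granule reads, 0.703 CPM in all. The macrophage and microglia genes summed to 2122 and 2568 CPM against 786 and 1815 CPM, with Csf1r, C1qa and C1qb the most abundant. Basophil genes were also present in every library, with Mcpt8 at 130.9 and 252.2 CPM against 121.9 and 101.2 CPM and Prss34 at 121.7 and 317.4 CPM against 121.4 and 76.6 CPM. The eosinophil genes Prg2 and Epx, whose proteins fill eosinophil granules, were in none of the tables. The erythroid genes summed to 650.5 and 558.3 CPM against 574.4 and 1069 CPM, and the endothelial genes to 18231 and 17284 CPM against 22028 and 23016 CPM. The lymphocyte genes spanned 40.0 to 74.1 CPM over the libraries, the platelet genes 99.7 to 119.3 CPM and the monocyte genes 39.8 to 172.9 CPM. At least 90% of the summed CPM lay in Pd1fl/fl replicate 1 for 1 of 9 erythroid genes of at least 1 CPM (Hemgn, 52 counts). The same held for 1 of 5 haematopoietic progenitor genes (Flt3, 28 counts) and 1 of 6 monocyte genes (Chil3). It held for none of the leukocyte, macrophage and microglia, basophil, lymphocyte or platelet genes. Hemgn and Flt3 were named after their values were seen. The part of these cells in the levels of the members was not tested.

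**Figure D4:**
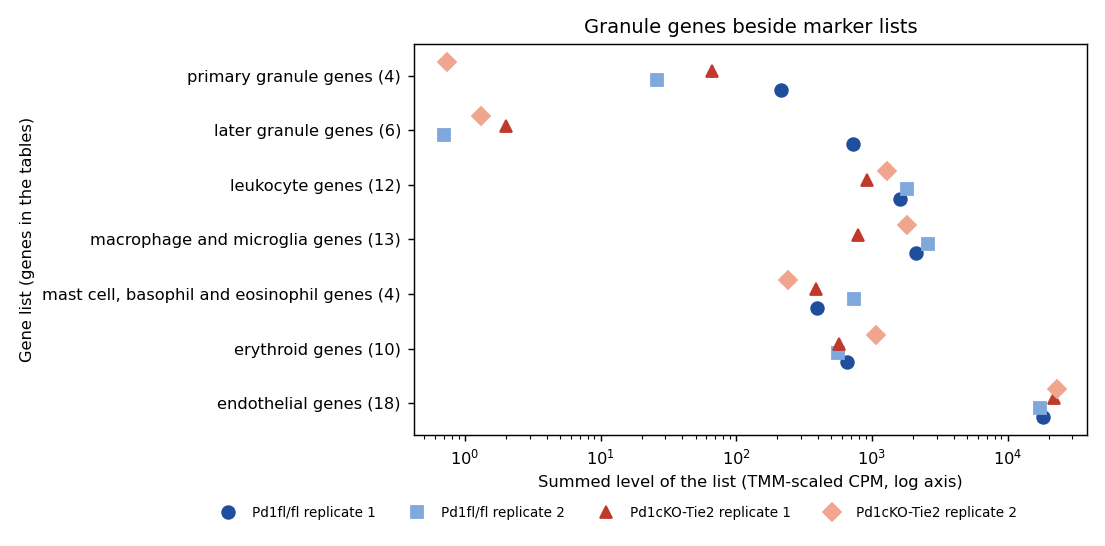
The summed level of each gene list is shown per library in TMM-scaled CPM (log axis), with the number of genes in the tables in parentheses. The primary granule genes span 0.731 to 213.7 CPM and the later genes 0.703 to 726.5 CPM, whereas the 12 leukocyte genes span 919 to 1824 CPM.

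Over all 10075 genes of at least 10 CPM compared, the patterns most like the members were sought by Pearson's correlation of log2(CPM + 1) over the 4 libraries, which is a description on 4 points. For the later genes the closest were Ggh, Chil3, Tbc1d1, Diaph3 and Wdr20, with r between 0.998 and 1.000. Of these only Chil3 had a similar span, from 11.7 CPM in Pd1fl/fl replicate 1 to 0, whereas Ggh lay between 75.1 and 90.7 CPM. For the primary granule genes they were Ddx25, Cyb561d1, Sash1, Apmap and Zic1, with r between 0.999 and 1.000 and no library under 1.75 CPM.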

How the data were processed

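RNA of brain endothelial cells was sequenced in 4 libraries. The authors deposited 4 tables, each setting 1 Pd1cKO-Tie2 beside 1 Pd1fl/fl library, with counts of whole reads per gene as they counted them, without normalization. Each CPM column deposited by the authors is the count relative to 1 library total, with 0.5 reads for a count of 0, and served only to recover that total. Their fold changes and p-values were not used. The submitters' processing notes name Bowtie2 2.2.3, TopHat2 2.0.12, HTSeq 0.6.0 and the build mm9, while gene positions in the tables are those of GRCm38 (90.0% equal GENCODE M21). Use of strand is not given. The tables were joined by identifier, and 5 broken lines in each of 2 tables were skipped. A gene enters a table with a count in each library, or with at least 5 in either, and 0 rows went against this. Unlisted genes were set to 0 and hold at most 0.0107% of a library's reads. No gene identifier was blank. Genotypes were taken from the labels.

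Genotypes were compared by edgeR 4.0.16 (R 4.3.3), with filterByExpr, TMM scaling and the quasi-likelihood test, adjusted by Benjamini-Hochberg. The test was tried on simulated counts first. Nothing in the labels says that libraries came from separate animals, so p-values measure the spread between these libraries. Exon lengths and shared 50-base stretches came from GENCODE M21. Alternatives were DESeq2 1.42.0, limma-voom (limma 3.58.1), RLE and total count scaling, no filter beyond 1 count, leaving out each library, and other definitions of the later-to-primary ratio. The members, the gene lists and the rule for named genes were chosen with earlier results of these data known. By that rule the text names all members, the genes of highest level and those that met the criterion in each neutrophil list, leading markers of other cells and the 5 closest patterns of each class, except 1 gene that is not reported here.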

Additional observations from a re-analysis of the deposited data

How the results depend on the processing

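Direction and size of the class levels were kept under total count and RLE scaling, where all 8 sums stayed within their Poisson intervals. Over all genes, 640 of the 15909 tested (4.02%) met the criterion. That became 698 with no filter beyond 1 count in edgeR, 936 with DESeq2 on all genes with a count and 504 with limma-voom. The number of members that met the criterion was 2, and became 6 with no filter beyond 1 count in edgeR, 6 with DESeq2 on all genes with a count, where tool and filter both differ, and 0 with limma-voom. Leaving out 1 library at a time moved this number in both directions. Those fits leave 1 library in a genotype, so only log2 fold changes are given for them. Fewer libraries and other filters change which members are tested. All 5 tested members changed sign on the log2 scale without Pd1fl/fl replicate 1, the library whose high counts they were chosen by. With 1 library left out, log2 fold changes ran from -14.50 to 6.37 for Ngp, -6.43 to 0.23 for S100a8, -13.40 to 0.18 for Mpo, -3.98 to 1.35 for Prtn3 and -8.71 to 3.01 for Ctsg. For the other granulocyte genes the count of 12 became 7 to 17 on leaving out 1 library, 15 with no filter beyond 1 count and 17 with DESeq2 on all genes with a count. The later-to-primary ratio, without division by length, was 3.40 and 0.0268 for the Pd1fl/fl libraries, then 0.0302 and 1.80 for those of Pd1cKO-Tie2. Without Mpo and Ngp it was 5.68, 0.701 and 0.156 in the first 3 libraries, taken in that order, and without S100a8, S100a9 and Lcn2 it was 5.01, 0, 0.0399 and 0. By value alone, each ratio stayed on its side of 1 except that of Pd1cKO-Tie2 replicate 2, which rests on 28 counts. No intervals are given for these other definitions, and the 0.701 of Pd1fl/fl replicate 2 rests on 10 later counts. No paired analysis was possible because the labels of the genotypes share only replicate number 1. Outside Pd1fl/fl replicate 1, levels of the later genes are limited by depth, with 10, 48 and 18 counts in all.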
